A study of Mus musculus with 4 samples.

Results

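The comparison set 2 knockout clones of the same tumour cell line against each other, the libraries labelled CD95ko1 and CD95ko2, called clone 1 and clone 2 here. Genes entered when their deposited value reached 1 TPM (a transcript abundance corrected for transcript length and library total) in either clone, and 11585 of the 24411 listed genes did so. Of the genes left out, 540 were above 0 in at least 1 clone and 12286 were listed at 0 in both. The threshold admitted Apold1 at 0 TPM in clone 1 and 1.0 TPM in clone 2, and left out Bicd1 at 0.48 and 0.99 TPM.

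The cells were 4T1, an established mouse mammary carcinoma line. Per the labels' protocols, cells were transduced with lentiCas9-Blast, a lentivirus carrying Cas9, and selected with blasticidin. A guide RNA pair against exon 9 of the CD95 gene was then transfected, and individual cells were sorted and grown into clones that were checked by PCR of genomic DNA. Each knockout library is therefore a single clone, and both clones carry the Cas9 virus and have passed through the same selection and a cloning step. The RNA sources named in the protocols are an untransduced control, the Cas9 line and the clones. The titles of the 2 control libraries do not say which control is which, so at most 1 of them shares the Cas9 virus with the clones and neither is described as a clone.

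CD95, encoded by Fas, is a death receptor of the tumour necrosis factor receptor family. Its ligand brings receptor molecules together, their intracellular death domains recruit the adaptor FADD and caspase-8, and the caspase cascade can follow. The same receptor can also signal through NF-kB and kinases in tumour cells that do not die. Clones grown from single cells of a tumour line inherit whatever state their founder cell had, so clones with the same edit can differ in many genes.

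The guides are shown because they define the edit that both clones share by design. They are written as 20-base protospacers in lower case with the adjacent PAM, the short motif that Cas9 needs, in capitals.
Guide 1: gccgggttcacatctgcgctAGG
Guide 2: cttgaggaatctgatgaccgTGG
In GENCODE M21 (GRCm38), Fas lies on the plus strand at chr19:34290666-34327772, and its last exon 9 spans chr19:34326993-34327772. The cut positions were not placed on the genome here.

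Fas itself was at 49.4 TPM in control 1, 39.2 in control 2, 15.8 in clone 1 and 49.5 in clone 2. Clone 1 was below both controls and clone 2 was not, a difference between the clones of 1.59 on the log2(TPM + 1) scale. One TPM value covers the whole gene, so reads over exon 9 cannot be singled out and the deletion is not tested by it. The transcript level thus differed between the libraries labelled CD95ko1 and CD95ko2, and whether this has to do with the edit was not tested. Every direction below refers to the libraries as labelled. Genotypes by PCR were not analysed here.

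All differences below are clone 2 minus clone 1 in log2(TPM + 1), where 1 is a 2-fold difference. There was 1 library a side, so no difference has a replicate check and none was tested. The difference of control 2 minus control 1, computed alike, is given as a yardstick for how far apart 2 libraries without the edit were. Read numbers are not part of TPM, so depth is unknown. In bulk RNA, fewer cells expressing a gene and less RNA per cell cannot be told apart.

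The libraries resembled each other in their broad make-up, with 11193 to 12010 genes above 0 and 34.1% to 40.2% of all TPM in the top 100 genes. Genes that mark mammary carcinoma epithelium were high in all 4, for example Krt18, a simple epithelial keratin, at 1707 and 1753 TPM in the controls, 2412 in clone 1 and 5160 in clone 2. Markers of other cells were mostly absent, with 13 of 16 leukocyte genes, 8 of 12 fibroblast genes and 8 of 10 endothelial genes listed at 0 in all 4 libraries. The leukocyte list summed to 14, 4.13, 35.2 and 107 TPM in control 1, control 2, clone 1 and clone 2, carried by Cd14 and Csf1r, while Ptprc, Cd3e and Itgam were at 0 throughout. The fibroblast list summed to 9.33, 1.39, 5.53 and 81.9 TPM, of which the matrix gene Postn made up 79.1 in clone 2, while Dcn and Lum were at 0.

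The clones were further apart than the controls. Of 11585 genes, 3085 (26.6%) were over 2-fold apart between the clones, 1385 (12.0%) higher and 1700 (14.7%) lower in clone 2. Between the controls, 1924 of 11388 genes (16.9%) were over 2-fold apart, 312 (2.74%) higher and 1612 (14.2%) lower in control 2. At 4-fold the clones differed in 820 genes (7.08%), 429 higher (3.7%) and 391 lower (3.38%) in clone 2, against 309 genes (2.71%) between the controls, 71 higher (0.623%) and 238 lower (2.09%) in control 2. The SD of the difference over genes was 1.10 for the clones and 0.719 for the controls, around medians of -0.10 and -0.37. The median of the control difference lies well below 0, so a list in which control 2 is lower by about that much does not stand apart from all genes.

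**Figure D1:**
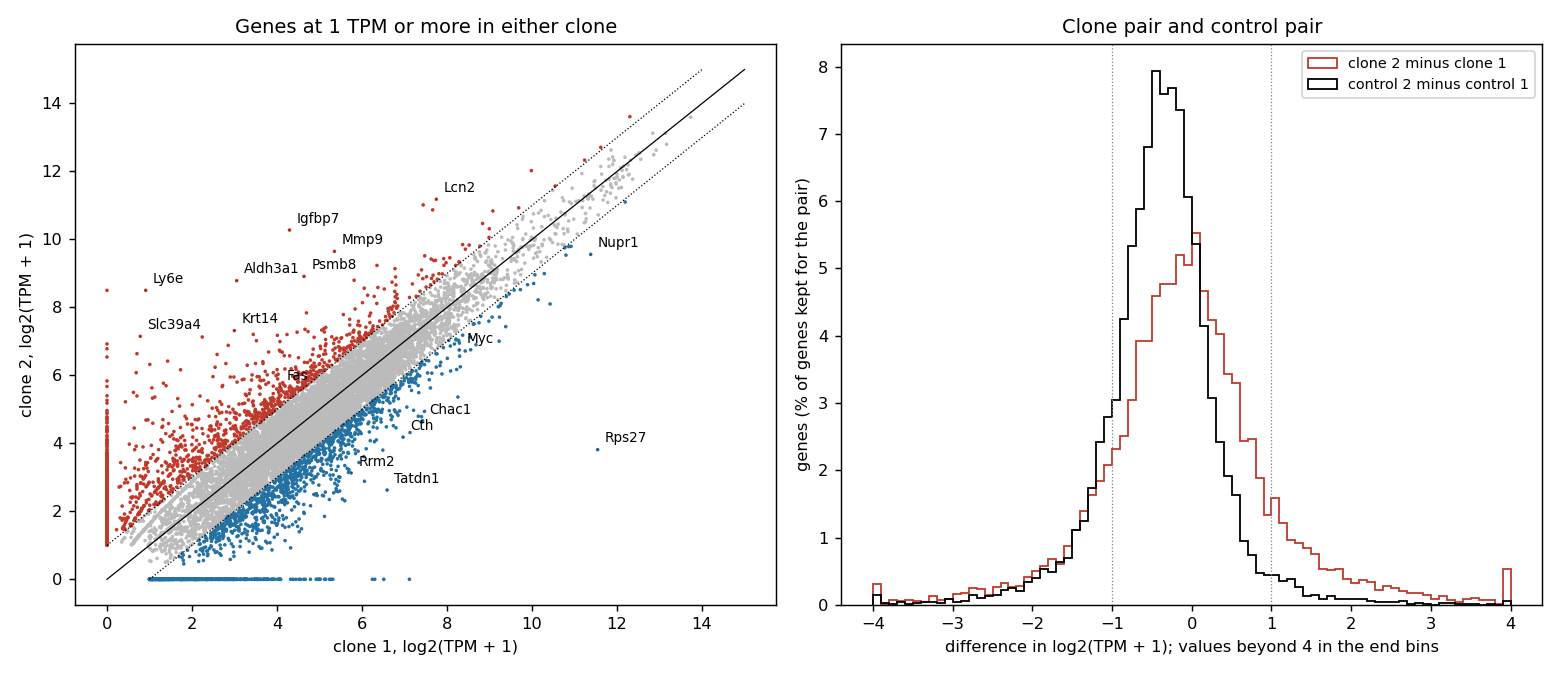
Each point in the left panel is a gene, with its log2(TPM + 1) in clone 1 on the x axis and in clone 2 on the y axis (dotted lines mark 2-fold, red and blue points are higher and lower in clone 2), and the right panel gives the distribution of the difference for the clones (red) and the controls (black) in percent of genes. The clone distribution is the wider, with 26.6% of genes over 2-fold apart against 16.9% between the controls.

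Set against the controls, the share of genes that separated the clones stood out most in proportion among abundant genes. Of the genes with a mean of 100 TPM or more, 12.9% of 1575 were over 2-fold apart between the clones, 120 higher and 83 lower in clone 2, and 1.89% of 1531 between the controls. Among genes with a mean of 1 to 5 TPM the shares were 49.5% and 32.7%. Genes listed at 0 in a single library contribute to the low end: restricted to the 10572 genes above 0 in both clones, 19.6% were over 2-fold apart, against 12.7% of 10836 in the controls.

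Among the genes that separated the clones, clone 2 was outside the range of the controls more often than clone 1. Of the 3085 genes over 2-fold apart, clone 2 alone lay more than 2-fold outside the range spanned by the 2 controls in 1302 (42.2%), and clone 1 alone in 458 (14.8%). In 1169 genes (37.9%) neither clone left the range by that much, in 103 (3.34%) both lay outside on the same side, and in 53 (1.72%) they lay outside on opposite sides. Both clones are set against the same 2 controls here. Over all genes kept, clone 1 was above the range in 865 and below it in 403, and clone 2 in 1499 and 1041.

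The genes with the clones on opposite sides of the controls included some abundant ones. Igfbp7, a secreted protein that binds insulin-like growth factors, was at 476 and 358 TPM in the controls, 18.6 in clone 1 and 1239 in clone 2, a difference of 5.98. Tmem176b, a multi-pass membrane protein, was at 540.3 and 715 TPM in the controls, 202 in clone 1 and 1868 in clone 2. Its neighbour Tmem176a followed the same order, at 228, 209, 80.7 and 601 TPM. Cd68, a lysosomal glycoprotein best known from macrophages, was at 44.6, 42.0, 17.8 and 146 TPM. In each of these genes clone 1 was the lowest of the 4 libraries and clone 2 the highest. Acyp1, an acylphosphatase, had the reverse order, with 59.4 and 47.6 TPM in the controls, 139 in clone 1 and 19.0 in clone 2.

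The antigen presentation list had the highest median of the lists of tumour cell genes, although with TPM of at least 5 the checkpoint and complement list (1.26) was above it (1.18). MHC class I molecules carry peptides to the cell surface for T cells. The peptides are cut by the proteasome, in which the immunoproteasome subunits Psmb8, Psmb9 and Psmb10 replace the standard ones, and are pumped by Tap1 and Tap2 into the endoplasmic reticulum. Of the 22 genes of the list, 13 were over 2-fold higher and 0 over 2-fold lower in clone 2, beside 12.0% and 14.7% of all genes. The median difference was 1.14, against -0.10 over all genes. For the control difference the median of the list was -1.06, and 12 of its genes were over 2-fold lower in control 2, so these genes also vary widely between the controls.

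Psmb8 was at 227 TPM in control 1, 52.3 in control 2, 23.8 in clone 1 and 481 in clone 2, a difference of 4.28. Clone 1 was below both controls and clone 2 above both. Psmb9 was at 15.6, 3.8, 9.18 and 43.2 TPM in the same order, and Psmb10 at 145, 71.3, 113 and 306 TPM. In both, clone 2 was the highest and clone 1 lay between the controls.

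Among the class I heavy chains, H2-K1 was at 107 and 53.4 TPM in the controls, 39.3 in clone 1 and 122 in clone 2, and H2-D1 at 801, 486, 436 and 891 TPM. Clone 1 was the lowest and clone 2 the highest library in both. H2-K1 shares 31.7% of its 25-base stretches with other transcripts, so reads may be split among class I genes. The transporter Tap1 was at 59.3 and 10.7 TPM in the controls, 19.4 in clone 1 and 48.3 in clone 2, so both clones were within the range of the controls. Nlrc5, the transactivator of class I genes, was at 9.37, 3.67, 0.22 and 5.56 TPM, with clone 1 below both controls. B2m, the light chain that every class I molecule needs, was at 787 and 507 TPM in the controls and at 342 and 324 in clones 1 and 2, a clone difference of -0.08. The list is not spread evenly over the genome. On chromosome 17, where the MHC lies, 9 of its 11 genes were over 2-fold higher in clone 2 (median 1.22). On other chromosomes it was 4 of 11 (median 0.20). Chromosome 17 as a whole, with 535 genes reaching 5 TPM in either clone, had a median of 0.10. Of these genes 12.5% were over 2-fold higher in clone 2.

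**Figure D2:**
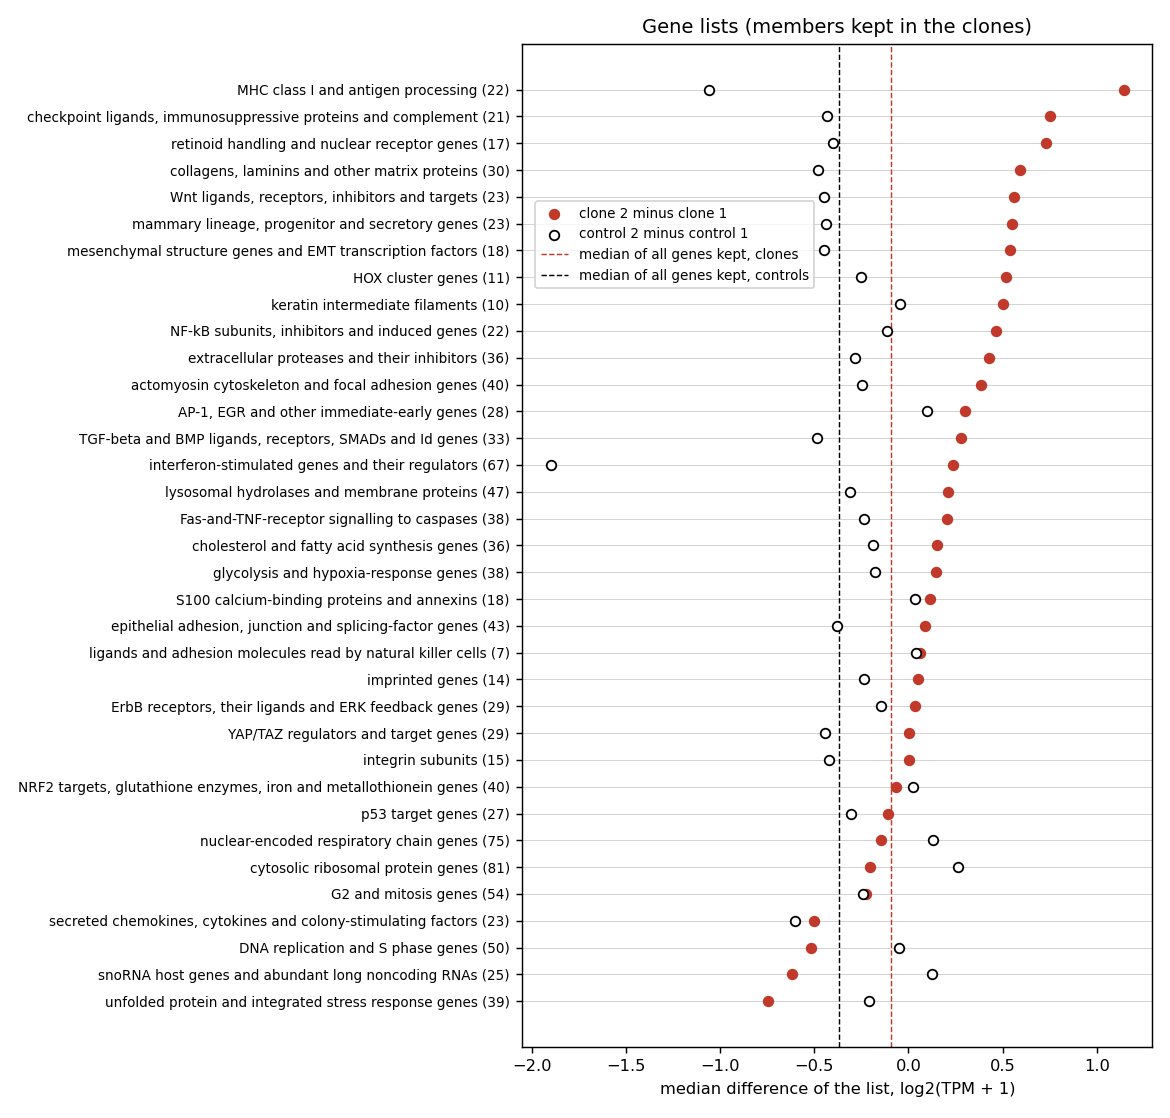
Median difference of each gene list in log2(TPM + 1), with filled points for clone 2 minus clone 1, open points for control 2 minus control 1 and dashed lines for the median over all genes; the number of members kept in the clones is in brackets. At the TPM minimum plotted, the antigen presentation list lies at the top with 1.14 and the stress response list at the bottom with -0.75.

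The wider interferon-stimulated genes did not follow antigen presentation as a group. These genes are switched on in cells that sense interferons. Of 67, 11 were over 2-fold higher and 8 over 2-fold lower in clone 2 (median 0.24), beside 12.0% and 14.7% of all genes. Between the controls 57 of 70 were over 2-fold lower in control 2 and the median was -1.90, so the controls differ more in this list than the clones do. Irf1, a transcription factor that acts on class I and immunoproteasome genes, was at 259 and 84.8 TPM in the controls, 101 in clone 1 and 253 in clone 2, and the GTPase gene Gbp4 at 13.5, 0.87, 4.17 and 37.1 TPM. In both genes clone 2 was more than 2-fold above clone 1. On the lower side, the antiviral gene Ifit3 was at 58.2 and 9.97 TPM in the controls, 11.1 in clone 1 and 1.7 in clone 2, and the ubiquitin-like modifier Isg15 at 600.5, 212, 156 and 62.3 TPM. Clone 2 was the lowest library in these last 2 genes. Ifit3b, at 5.96 TPM in clone 1 and listed at 0 in clone 2, shares 59.2% of its sequence stretches with other transcripts and is uncertain.

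Chemokines and cytokines went both ways, 6 over 2-fold higher and 5 over 2-fold lower of 23, beside 12.0% and 14.7% of all genes. Their median was -0.50. Il11, Il15 and Il18 reached 1 TPM in clone 2 only, and Ccl2, Ccl25, Cxcl3 and Cxcl10 in clone 1 only. Each of these could enter only as higher in that clone. Cxcl10, an attractant of T cells and natural killer cells, was at 193 and 49.9 TPM in the controls and at 23.8 in clone 1, and was listed at 0 in clone 2. Ccl20, an attractant of CCR6-bearing lymphocytes, was at 63.0, 61.3, 39.3 and 4.83 TPM in control 1, control 2, clone 1 and clone 2. Ccl2, the monocyte attractant, was at 123 and 45.6 TPM in the controls, 2.29 in clone 1 and 0 in clone 2. Both clones were below both controls in these 3 genes, and clone 2 was the lowest. Il18, an interleukin-1 family cytokine, was instead listed at 0 in clone 1 and stood at 8.79 TPM in clone 2, with 4.76 and 1.74 in the controls.

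In the Fas and TNF receptor pathway, 5 of 38 genes were over 2-fold higher and 4 over 2-fold lower in clone 2, near the shares over all genes, with a median of 0.21. Among receptors, Cd40 was listed at 0 in clone 1 and was at 8.24 TPM in clone 2, with 4.72 and 0.82 in the controls. Tnfrsf1b, the second TNF receptor, was at 14.3 and 12.3 TPM in the controls, 29.1 in clone 1 and 76.0 in clone 2. Tnfrsf12a, the receptor of TWEAK, was at 1429, 1722, 951 and 405 TPM. The adaptor Fadd was at 21.3 and 12.8 TPM in the controls and at 5.53 and 4.62 in the clones, a difference of -0.22, so both clones were below both controls. Casp8, the initiator caspase of the pathway, differed by -0.22 and Cflar, its inhibitor, by 0.25. Downstream, Bid, which carries the signal to mitochondria, was at 62.7, 68.8, 21.6 and 65.1 TPM, with only clone 1 low, as for Fas. Casp2 differed by -1.39.

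Genes of NF-kB signalling had a median of 0.46, with 7 over 2-fold higher and 2 over 2-fold lower of 22, beside 12.0% and 14.7% of all genes. The adhesion molecule gene Vcam1 was at 76.3 and 21.9 TPM in the controls, 2.32 in clone 1 and 70.7 in clone 2. The inhibitor gene Nfkbie and Bcl3 had the same pattern, at 85.5, 36.0, 8.55 and 42.5 TPM and at 25.0, 19.2, 1.79 and 9.34 TPM. Clone 1 was the low library in all 3. Vcam1 and Nfkbie in clone 2 were within the range of the controls, and Bcl3 was below it. The subunit genes themselves differed less, Nfkb1 by 0.12 and Rela by -0.69.

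Among checkpoint ligands, immunosuppressive enzymes and complement, 9 of 21 genes were over 2-fold higher and 4 over 2-fold lower in clone 2. The shares over all genes were 12.0% and 14.7%, and the median of the list was 0.75. Nos2, inducible nitric oxide synthase, was at 4.74 and 3.25 TPM in the controls, 1.18 in clone 1 and 40.2 in clone 2. Arg1, arginase, was listed at 0 in both controls and stood at 2.27 and 33.2 TPM in the clones. The complement component C3 was at 109.6, 107, 103 and 428 TPM in control 1, control 2, clone 1 and clone 2. In these genes clone 2 was the single high library. Cfb and C2, the neighbouring complement genes on chromosome 17, were at 29.1 and 7.57 TPM in clone 2 and at 0 in clone 1, but share 76.4% and 42.0% of their sequence stretches with other transcripts and are uncertain. Cd274, which encodes the checkpoint ligand PD-L1, differed by -0.17. Cd47, the "do not eat me" signal to phagocytes, was at 164, 132, 133 and 64.2 TPM, lowest in clone 2.

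Clone 2 was higher in many genes of the extracellular matrix and its remodelling. Matrix proteins build the scaffold around cells, and secreted proteases such as the matrix metalloproteinases cut it. Of 30 matrix genes 11 were over 2-fold higher and 1 over 2-fold lower (median 0.59), beside 12.0% and 14.7% of all genes. Among 36 proteases and inhibitors 12 were higher and 4 lower (median 0.43), beside the same shares. After the difference was corrected for GC content and transcript length, the matrix median was 0.27 and the protease median 0.34.

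Postn, a matricellular protein also listed among fibroblast markers, was at 6.31 and 0.42 TPM in the controls, 1.01 in clone 1 and 79.1 in clone 2. Sparc, a collagen-binding protein, was at 128 and 47.1 TPM in the controls, 4.83 in clone 1 and 74.5 in clone 2. For Postn clone 2 was the high library and for Sparc clone 1 the low one. Thbs1, thrombospondin-1, was at 42.5, 15.9, 109.7 and 475 TPM, and Fn1, fibronectin, at 347, 151, 329 and 921 TPM. Ecm1 differed by 2.02. Spp1, osteopontin, was the member lower in clone 2, at 686 and 736 TPM in the controls, 1862 in clone 1 and 883 in clone 2. The collagen gene Col1a1 was at 0.99 and 1.38 TPM in the clones, so the main fibroblast collagen was low in both.

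Mmp9, a gelatinase, was at 66.6 and 16.1 TPM in the controls, 39.8 in clone 1 and 802 in clone 2, a difference of 4.30. Clone 1 lay within the range of the controls and clone 2 far above it. Mmp3, stromelysin-1, was at 17.2 and 9.07 TPM in the controls, listed at 0 in clone 1, and at 17.2 in clone 2. Slpi, an inhibitor of leukocyte proteases, was at 117, 75.6, 6.22 and 117 TPM. For Mmp3 and Slpi, clone 1 was the library outside the range of the controls. Plau, the urokinase plasminogen activator, was at 137, 89.9, 172 and 459 TPM. Klk10, a kallikrein, was the member with the largest difference the other way, at 9.44, 30.0, 33.7 and 2.61 TPM.

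Individual epithelial and lineage genes differed in both directions. The epithelial adhesion and junction list had a median of 0.09, with 7 of 43 over 2-fold higher and 6 over 2-fold lower. The shares over all genes were 12.0% and 14.7%. The central members were near each other in the clones: Cdh1, E-cadherin, differed by 0.31 and Epcam by 0.09. At the ends, the tight junction gene Tjp3 was at 13 and 10.9 TPM in the controls, 15.6 in clone 1 and 106 in clone 2. The desmosomal cadherin gene Dsc2 was at 4.53, 0, 31.0 and 0 TPM, high in clone 1 alone. Ap1m2, an epithelial sorting adaptor, was at 18.7, 2.37, 30.4 and 0 TPM. Krt14, a keratin of basal epithelial cells, was at 24.1 and 20.6 TPM in the controls, 6.98 in clone 1 and 158 in clone 2, though 34.2% of its sequence stretches occur in other transcripts, mostly Krt16. Of the 10 keratins kept, 4 were over 2-fold higher and 3 over 2-fold lower in clone 2, beside 12.0% and 14.7% of all genes. Krt10 and Krt16 reached 1 TPM in clone 2 only, and Krt15 and Krt17 in clone 1 only. Each of them could enter only as higher in that clone.

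Of 23 mammary lineage and secretory genes, 6 were over 2-fold higher and 1 over 2-fold lower in clone 2 (median 0.55). The shares over all genes were 12.0% and 14.7%. Aldh3a1, an aldehyde dehydrogenase, was at 2.36 and 6.33 TPM in the controls, 7.29 in clone 1 and 440.2 in clone 2, a difference of 5.73. Lcn2, lipocalin-2, an iron-carrier binding protein of secretions, was at 383, 497, 214 and 2323 TPM. Ly6a, the surface protein Sca-1, was at 23.3, 1.52, 3.73 and 139 TPM, with 37.4% of its sequence stretches shared with other transcripts. All 3 were highest in clone 2. Of 18 mesenchymal genes 8 were over 2-fold higher and 3 over 2-fold lower (median 0.54), beside 12.0% and 14.7% of all genes. Postn and Sparc, among the 8, are also members of the matrix list, so the lists are not separate. S100a4, also among the 8, shares 49.7% of its sequence stretches with other transcripts. Zeb2 reached 1 TPM in clone 2 only, and Tagln and Loxl2 in clone 1 only. Vim, the intermediate filament of mesenchymal cells, was at 652 and 629 TPM in the controls, 92.9 in clone 1 and 211 in clone 2, so both clones were below both controls while clone 2 was above clone 1.

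Some retinoid and Wnt genes were higher in clone 2. Of 17 retinoid-handling and nuclear receptor genes, 7 were over 2-fold higher and 0 lower (median 0.73), beside 12.0% and 14.7% of all genes. Crabp2, Stra6, Cyp26b1 and Pparg, all among the 7, reached 1 TPM in clone 2 only. They stood there at 4.19, 7.21, 1.38 and 1.94 TPM, and at 0, 0.57, 0 and 0 TPM in clone 1. Such genes could enter only as higher in clone 2. Dhrs3, which reduces retinal to retinol, was at 3.79 and 1.6 TPM in the controls, 5.02 in clone 1 and 97.1 in clone 2, and Rdh10, which works in the opposite direction, at 18.0, 16.9, 21.8 and 67.5 TPM. Of 23 Wnt genes 8 were over 2-fold higher and 2 lower, beside 12.0% and 14.7% of all genes. Their median was 0.56, or 0.23 with genes above 0 in both clones only. The ligand Wnt9a was at 4.67, 1.97, 8.07 and 57.6 TPM and Wnt10b at 3.28, 2.4, 1.45 and 21.2 TPM. Within the TGF-beta and BMP list, 9 of 33 were over 2-fold higher and 5 over 2-fold lower, beside 12.0% and 14.7% of all genes. The lower share was near that of all genes. Inhbb and Fst, both among the 9, reached 1 TPM in clone 2 only and could enter only as higher there. Ltbp2, of the family of latent TGF-beta binding proteins, was at 24.4, 14.1, 10.4 and 129 TPM.

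**Figure D3:**
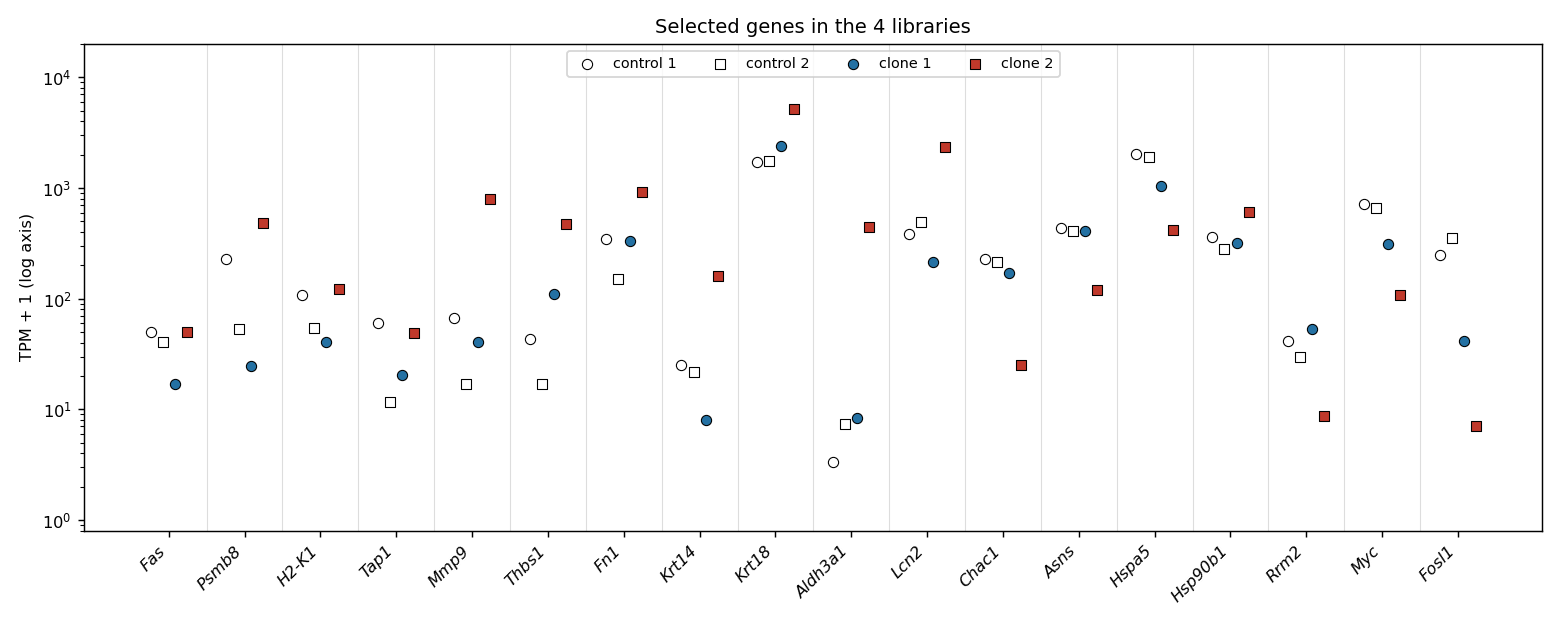
TPM + 1 on a log axis for 18 genes in the 4 libraries, with open symbols for the controls and filled symbols for clone 1 (circles) and clone 2 (squares). Clone 2 is the highest library for genes such as Mmp9 (802 TPM) and Aldh3a1 (440.2 TPM) and the lowest for Chac1 (24.4 TPM) and Rrm2 (7.75 TPM).

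The stress response list had the lowest median of these lists. When the endoplasmic reticulum is overloaded or amino acids are short, kinases phosphorylate the initiation factor eIF2, the transcription factor ATF4 is translated, and it switches on genes for amino acid supply. A separate arm through ATF6 and XBP1 raises chaperones of the endoplasmic reticulum. Of 39 genes of both arms, 15 were over 2-fold lower and 0 over 2-fold higher in clone 2, beside 14.7% and 12.0% of all genes, with a median of -0.75 (-0.88 after correction for GC content and length). Between the controls the median was -0.21 and 3 genes were over 2-fold lower.

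The largest differences of the list were in genes induced through ATF4. Chac1, which degrades glutathione, was at 227 and 213 TPM in the controls, 171 in clone 1 and 24.4 in clone 2. Trib3, a pseudokinase induced by ATF4, was at 451, 390.4, 298 and 71.2 TPM. Asns, asparagine synthetase, was at 435, 411, 409.8 and 119 TPM. In these 3 genes clone 1 was near the controls and clone 2 more than 2-fold below all of the other libraries. Psat1, of serine synthesis, was at 327, 310.3, 344 and 104 TPM and Aldh18a1, of proline synthesis, at 176, 129, 194 and 48.5 TPM. Cth, cystathionine gamma-lyase, was at 53.7, 29.5, 124 and 17.1 TPM, with clone 1 above both controls and clone 2 below both. Nupr1, a stress-induced nuclear protein, was at 1192, 1638, 2665 and 753 TPM. The transcript of Atf4 itself was at 1014, 896, 673 and 401 TPM, a difference of -0.75, and its partner Ddit3 differed by -0.46.

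The chaperones differed among themselves. Hspa5, the main chaperone of the endoplasmic reticulum (BiP), was at 2018 and 1914 TPM in the controls, 1050.4 in clone 1 and 415 in clone 2. Hsp90b1 was at 359, 278, 320.1 and 601 TPM, highest in clone 2. Pdia6 differed by 0.51 and Xbp1 by 0.15. Both clones were below both controls for Hspa5 and not for Hsp90b1.

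ATF4 binds a composite element with the core TGATGNAA, which was searched on both strands from 250 bases before to 50 bases after the start site in the RefSeq promoter table of GRCm38.p6. It was found in 6 of the 13 members with a promoter in the table that were over 2-fold lower in clone 2 (46.15%), and in 2 of 22 members under 2-fold apart (9.09%). Of the 9271 genes kept that have a promoter there, 234 (2.52%) had it. The match is a description of the letters and not evidence of binding. The list joins genes of both arms, which were not searched apart, so the shares also follow its make-up. The windows below show 5 of the 6 genes, each read along the strand of its gene with the match in capitals.
Chac1, chr2:119351038-119351067, plus strand: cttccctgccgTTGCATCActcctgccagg
Atf3, chr1:191183425-191183454, minus strand: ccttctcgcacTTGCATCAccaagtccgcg
Nupr1, chr7:126625562-126625591, minus strand: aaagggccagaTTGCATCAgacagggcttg
Asns, chr6:7693214-7693243, minus strand: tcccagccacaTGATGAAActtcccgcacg
Slc7a11, chr3:50443661-50443690, minus strand: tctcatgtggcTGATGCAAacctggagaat
Atf3, a stress-induced transcription factor, was at 235 and 376 TPM in the controls, 50.3 in clone 1 and 12.1 in clone 2, so both clones were below both controls. Slc7a11, the cystine importer, was at 6.77, 5.08, 8.62 and 2.08 TPM, lowest in clone 2.

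The same search for the interferon-response motif (GAAA, any 2 bases, GAAA again) covered the 19 antigen presentation genes with a promoter in the table. It found the motif in 4 of them, 2 of 11 over 2-fold apart and 2 of 8 that were not. The share of all genes kept with a promoter there was 3.6%. The 2 examples shown are a gene higher in clone 2 and a gene that hardly differed.
H2-T23, chr17:36032806-36032835, minus strand: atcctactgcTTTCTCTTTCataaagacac
B2m, chr2:122147538-122147567, plus strand: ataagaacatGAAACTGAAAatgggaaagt
H2-T23, a non-classical class I gene, differed by 1.31 and B2m by -0.08.

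DNA replication genes had a negative median, and more of them were over 2-fold lower than over 2-fold higher in clone 2. Of 50 replication and S phase genes, 10 were over 2-fold lower and 2 over 2-fold higher, beside 14.7% and 12.0% of all genes. The difference was below 0 in 38 of the 50, beside 54.7% of all genes, and the median was -0.52, against -0.05 between the controls. Rrm2, the regulated subunit of ribonucleotide reductase, was at 40.3 and 28.9 TPM in the controls, 52.6 in clone 1 and 7.75 in clone 2. Rpa2, which coats single-stranded DNA, was at 16.7, 18.3, 18.4 and 1.93 TPM, and the clamp loader subunit Rfc4 at 48.2, 50.3, 50.8 and 14.8 TPM. Clone 2 was the low library and clone 1 was near or above the controls in these genes. E2f1, an activator of S phase genes, was at 17.3, 18.3, 12.3 and 31.9 TPM, the reverse direction. Of 54 mitosis genes 3 were over 2-fold lower and 1 higher, with a median of -0.23 in the clones and -0.24 in the controls. Mki67, a proliferation marker, differed by -0.19 and Top2a by 0.61. The E2F motif TTTNGCGC was searched in the 41 replication genes with a promoter in the RefSeq table. It was in 2 of 10 that were over 2-fold apart in either direction and in 10 of 31 under 2-fold apart. The share of all genes kept with a promoter there was 2.99%.

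The immediate-early genes were split by member. Myc was at 716 and 659 TPM in the controls, 311 in clone 1 and 106 in clone 2. Fosl1, an AP-1 subunit, was at 247, 354, 40.1 and 6.07 TPM. Both clones were below both controls in these 2 genes, with clone 2 the lower. The AP-1 subunit Fos was at 8.77, 7.06, 25.5 and 155 TPM, and Egr1 at 9.34, 24.8, 4.63 and 61.4 TPM, both highest in clone 2. Jun was at 184, 216, 34.2 and 116 TPM, low in clone 1. Of 28 genes of the list, 8 were over 2-fold higher and 4 over 2-fold lower, beside 12.0% and 14.7% of all genes.

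Host genes of small nucleolar RNAs and other long noncoding RNAs included 8 of 25 over 2-fold lower and 1 over 2-fold higher in clone 2. The shares over all genes were 14.7% and 12.0%. The median of the list was -0.62, against 0.12 between the controls. The 8 include low transcripts: Mir17hg (6.87 and 2.87 TPM in clones 1 and 2), Mir155hg (1.35 and 0) and Ftx (1.8 and 0). Mir155hg and Ftx reached 1 TPM in clone 1 only, so they could enter only as lower in clone 2. Snhg12 was at 574 and 738 TPM in the controls, 271 in clone 1 and 69.0 in clone 2, and Snhg1 at 1001, 1473, 346 and 203 TPM. Both clones were below both controls in these genes, and clone 2 was the lower. Snhg3 was at 23.8, 26.1 and 36.7 TPM in control 1, control 2 and clone 1 and listed at 0 in clone 2. Malat1, a nuclear long noncoding RNA, differed by 0.16. The member that was higher, Rpph1, shares 71.5% of its sequence stretches with other transcripts.

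Ribosomal protein and respiratory chain genes differed little. Of 75 respiratory chain genes 4 were over 2-fold lower and 0 higher in clone 2 (5.33% over 2-fold apart), with a median of -0.15. Over all genes 26.6% were over 2-fold apart. Uqcrq, a subunit of complex III, was at 1388 and 1715 TPM in the controls, 1129.6 in clone 1 and 297 in clone 2. Of 81 ribosomal protein genes 3 were over 2-fold lower and 1 higher (4.94%), with a median of -0.20, but these calls include Rps27 among the lower and Rps27rt as the higher. Rps27 was at 3108, 4486, 2984 and 13.1 TPM while Rps27rt, a near-identical copy with 95.3% shared sequence stretches, was at 0, 0, 173 and 2069 TPM. The low library of Rps27 was the high library of its copy, so the split of reads between them is uncertain and neither value is taken as a difference in level.

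Metabolic and detoxification genes differed singly. Aldoc, a glycolytic aldolase, was at 12.2 and 10.8 TPM in the controls, 0 in clone 1 and 92.1 in clone 2. Ephx1, an epoxide hydrolase, was at 7.51, 0.82, 0 and 120.5 TPM, and Gstm2, a glutathione transferase, at 24.1, 15.3, 15.1 and 144 TPM. The high library of these 3 was clone 2. Ndrg1, a gene induced by low oxygen, was at 329, 399, 598 and 127 TPM, and Egln3, an oxygen-sensing hydroxylase, at 31.5, 19.8, 42.3 and 4.98 TPM, with clone 2 the low library in both. The lists as wholes had medians near that of all genes, 0.15 for glycolysis and low-oxygen response and -0.07 for glutathione, iron and metallothionein genes. Trp53, the p53 gene, was at 94.2, 69.5, 88.2 and 31.0 TPM. The p53 list, Trp53 included, had 8 of 27 genes over 2-fold lower and 5 higher, beside 14.7% and 12.0% of all genes.

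Some of the largest differences were between a level and a 0. In clone 1, 60 genes listed at 0 had at least 10 TPM in clone 2, and 36 of them were above 0 in both controls. In clone 2, 62 genes listed at 0 had at least 10 TPM in clone 1, and 51 were above 0 in both controls. Between the controls the corresponding counts were 10 and 18. Eml2, a microtubule-associated protein, was at 55.6 and 39.7 TPM in the controls, listed at 0 in clone 1, and at 109 in clone 2. Gng11, a G protein gamma subunit, was at 48.0, 23.6, 0 and 41.2 TPM. Both genes were listed at 0 in clone 1 alone. Tex30 was at 35.7 and 36.9 TPM in the controls, 33.7 in clone 1 and 0 in clone 2, and Rpp21, a protein subunit of ribonuclease P, at 16.2, 24.9, 38.7 and 0 TPM. S100a3, a calcium-binding protein, was at 24.3, 28.9, 29.4 and 0 TPM. An exact 0 in TPM can also be an estimate that assigned the reads elsewhere, which was not tested.

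Several of the largest differences were in genes whose level was low in every other library. Slc5a5, the sodium-iodide symporter, was at 0.41 and 0 TPM in the controls, 0.54 in clone 1 and 44.2 in clone 2. Alpl, tissue-nonspecific alkaline phosphatase, was at 0.96, 0.53, 0.63 and 41.1 TPM, Il17re, a subunit of the interleukin-17C receptor, at 2.04, 1.34, 1.08 and 48.6 TPM, and Prss27, a serine protease, at 1.14, 1.25, 1.51 and 53.5 TPM. Clone 2 was the single high library in these 4 genes. Dynlt1c, at 138 TPM in clone 1 and 0 in clone 2, shares 87.5% of its sequence stretches with other transcripts and is uncertain.

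The clone difference also moved with base composition. Across 11512 genes, Spearman's rho between the difference and the GC content of the longest transcript was 0.233, and with its length it was -0.021. For the controls the values were -0.035 and -0.21. These are descriptions over genes of the same libraries, which share library and amplification. In the eighth of genes with the lowest GC content (31.0% to 42.2%, 1439 genes), the median was -0.36, with 20.0% over 2-fold lower and 5.70% higher. In the eighth with the highest (57.3% to 72.8%), it was 0.21, with 11% lower and 19.9% higher. The part of GC content in the differences of single genes was not tested, and a correction for GC content and length was applied to the list medians. After it the antigen presentation median was 0.83, the retinoid median 0.59, the replication median -0.54 and the noncoding host median -0.52. The keratin median went from 0.50 to 0.27, the TGF-beta and BMP median from 0.28 to 0.10, and the immediate-early median from 0.30 to 0.15.

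Along the genome, differences of the same sign lay together on some chromosomes. For 9919 genes placed with the RefSeq table and reaching 5 TPM in either clone, the median difference was taken over runs of 50 neighbouring genes, 8939 in all. Clone medians ranged from -0.81 to 0.82 (SD 0.274) and control medians from -0.81 to 0.13 (SD 0.168). These runs overlap and so are not independent. Both the highest and the lowest clone medians lay on chromosome 15. By whole chromosome, X had the lowest median, -0.44, and chromosome 10 the highest, 0.24. After correction for GC content and length, chromosome 5 was the lowest, at -0.40, with X at -0.32, and chromosome 10 remained the highest, at 0.21.

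The highest median was shared by 12 overlapping runs. The first of them along the chromosome, chr15:73090412-76704239 from Chrac1 to Mfsd3, had a median of 0.82, with 36 of 50 genes above 0 and 17 over 2-fold higher in clone 2. The control median there was -0.54, the median GC content 56.8%, and the clone median corrected for GC content and length 0.59. It holds Ly6e, a GPI-anchored surface protein at 69.9 and 12.4 TPM in the controls, 0.88 in clone 1 and 362 in clone 2, together with Ly6a. It also holds Slc39a4, a zinc importer at 34.0, 16.8, 0.72 and 141 TPM, and Dgat1, which makes triglycerides, at 12.0, 9.32, 14.1 and 66.7 TPM. Each of these was highest in clone 2.

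The lowest median was shared by 4 overlapping runs, of which the first, chr15:39112874-66969641 from Dcaf13 to Ndrg1, had a median of -0.81, with 8 of 50 genes above 0 and 22 over 2-fold lower in clone 2. The control median was -0.51 and the corrected clone median -0.73. It holds Myc and Ndrg1 (above), the long noncoding RNA Pvt1 at 33.8, 23.5, 13.9 and 6.46 TPM, and Tatdn1, a deoxyribonuclease-like gene, at 75.8, 25.6, 95.3 and 5.17 TPM. Before Myc lie Mrpl13, a mitochondrial ribosomal protein gene at 399, 326, 374 and 139 TPM, and Ndufb9, a complex I subunit at 1394, 1187, 1249 and 509 TPM. Clone 2 was the lowest library in all 6 genes. Divided at position 73090412, which was chosen after the values were seen, the 122 genes before it had a median of -0.45 (7 over 2-fold higher, 30 lower) and the 300 from there on 0.48 (79 higher, 14 lower). The control medians were -0.48 and -0.56, and the median GC contents 44.9% and 54.8%. Copy number was not measured, and its part in these differences was not tested.

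On chromosome X the lowest run, from Alg13 to Erdr1, had a median of -0.80 before and after the correction and a control median of -0.63, with 20 of 50 genes over 2-fold lower in clone 2. The translation initiation factor gene Eif1ax was at 315 and 371 TPM in the controls, 235 in clone 1 and 64.9 in clone 2, and Pdha1, of pyruvate dehydrogenase, at 118, 91.2, 132 and 32.5 TPM. Both were lowest in clone 2.

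**Figure D4:**
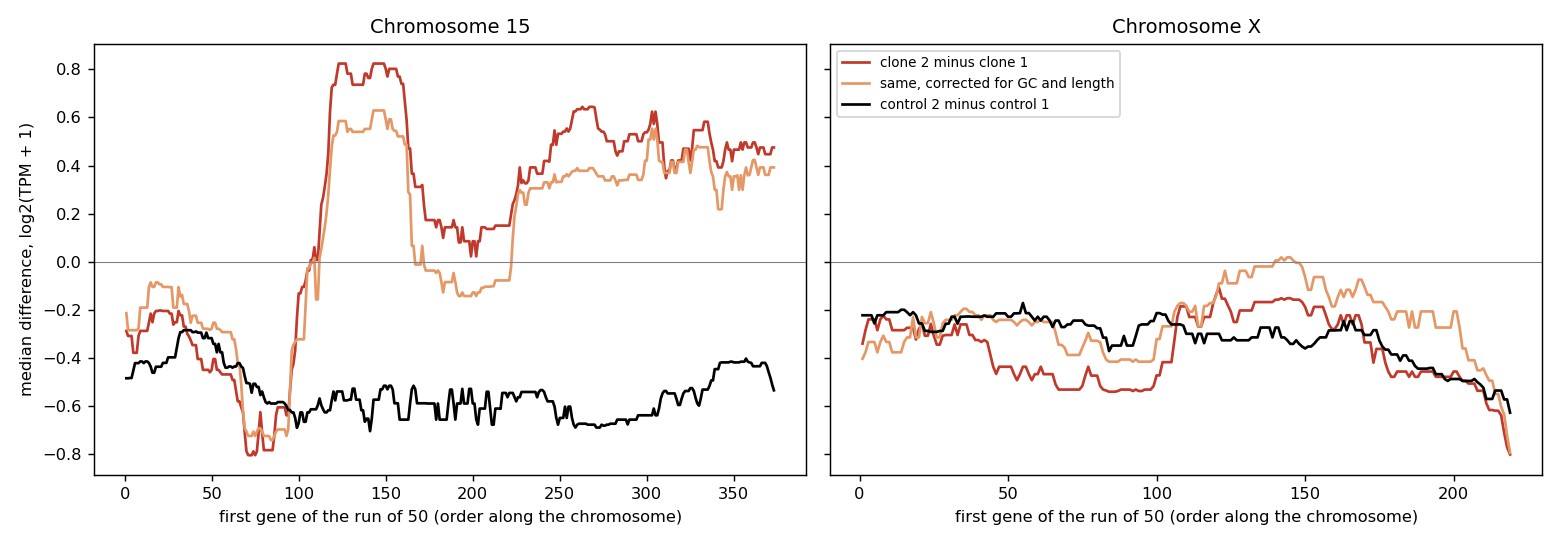
Median difference in log2(TPM + 1) over runs of 50 neighbouring genes along chromosomes 15 and X, by the order of the first gene, for clone 2 minus clone 1, the same after correction for GC content and length, and control 2 minus control 1. On chromosome 15 the clone line goes from -0.81 to 0.82 while the control line stays below 0.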

How the data were processed

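The 4 deposited tables pair gene symbols with TPM, per the file headers. STAR 2.6.0, RSEM 1.3.0 and the genome build mm10 are named in the submitters' processing notes; the annotation and the strand setting are not given in the sources used here. Per the labels' protocols, RNA captured on oligo(dT) was fragmented, tailed, reverse transcribed and amplified by PCR, which can favour some base compositions; no molecular identifiers are mentioned. TPM holds no read number, so depth and counting error are unknown.

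Genes with TPM of at least 1 in either clone were kept and compared as log2(TPM + 1), with a pseudocount of 1, which understates folds of low genes (Python 3.11.15, numpy 2.4.6, pandas 2.3.3). Over 2-fold means a difference of at least 1. Genes that reached the minimum TPM in a single clone could be called only as higher in that clone. Each clone was also placed against the range of the 2 controls. The computation was tested on simulated data. Gene lists and members were chosen with earlier results of these data known, so list counts are descriptions. Genes named are Fas; the 15 largest differences per direction among genes with at least 10 TPM in the higher clone and a control difference under 1; up to 4 per list; and up to 5 per direction at 0. Other genes were named after their values were seen. Some genes that met the rule are not reported here. Length, GC content and shared 25-base stretches came from GENCODE M21, found for 11512 genes, and positions (11550 genes) and promoters from RefSeq GRCm38.p6. Alternatives were a pseudocount of 0.1, no filter, TPM of at least 5, quantile normalization, median centring, removal of ribosomal protein genes, other fold sizes, and, added after seeing the data, correction for GC content and length (medians of 20 bins) and only genes above 0 in both clones.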

Additional observations from a re-analysis of the deposited data

How the results depend on the processing

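The number of genes over 2-fold apart between the clones, 3085, became 820 at 4-fold and 5499 at 1.5-fold; between the controls 1924 became 309 and 4453, and 1210 with TPM of at least 5. The share of the clones' genes that were higher in clone 2, 44.9%, was 49.1% after quantile normalization, 51.0% after centring, 42.1% without ribosomal protein genes, 52.3% at 4-fold, 43.1% at 1.5-fold and 43.0% with the correction for GC content and length. The SD of the clone difference was 1.81 with a pseudocount of 0.1 and 0.87 with genes above 0 in both, and that of the controls 1.23 and 0.599. The share with clone 2 alone outside the controls was 44.7% with TPM of at least 5 and 44.7% after quantile normalization, and that with clone 1 alone 16.7% with a pseudocount of 0.1, 12.0% with TPM of at least 5 and 10.1% with genes above 0 in both. The checkpoint and complement median was 1.26 with TPM of at least 5, above the 1.18 of antigen presentation. The cause was not tested in any of these. Of the other 285 list medians none moved by more than 0.463, the median absolute difference between the controls, and none of the lists with a median of at least 0.5 in size reversed. Of the values of 164 named genes, 1153 moved by less than that and 76 by more, none reversing. The correction and the restriction to genes above 0 in both were chosen after seeing the data. No paired analysis was possible because each side is 1 library and no test was made, and for the same reason leaving out a library gives no value. With 1 clone a side, a difference between clones cannot be told apart from one between cultures or library preparations.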

Other observations

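Cytoskeletal and surface genes included members that differed between the clones. Of 40 actomyosin and focal adhesion genes, 9 were over 2-fold higher and 3 over 2-fold lower in clone 2, with a median of 0.38. The shares over all genes were 12.0% and 14.7%. Myh14, a nonmuscle myosin heavy chain, was at 41.0 and 15.8 TPM in the controls, 77.0 in clone 1 and 320 in clone 2, and the more abundant Myh9 at 182, 102, 182 and 477 TPM. Clone 2 was above the other libraries in both. Of 15 integrin subunits 5 were over 2-fold higher and 3 over 2-fold lower, beside 12.0% and 14.7% of all genes. Itgb2, the beta subunit of leukocyte integrins, was at 18.0, 6.44, 12.2 and 68.5 TPM, while Itga3 and Itgb1, the abundant epithelial subunits, differed by 0.00 and 0.16. Of the 7 genes kept from the list of natural killer cell ligands, 3 were over 2-fold lower and 1 higher. Over all genes 14.7% were lower and 12.0% higher. The list includes Qdpr, a pteridine reductase that is no such ligand, which was under 2-fold apart. Pvr, a ligand of the activating receptor DNAM-1, was at 63.1 and 80.6 TPM in the controls, against 18.7 in clone 1 and 19.5 in clone 2, both below the controls. Clec2d was at 19.2, 4.69, 8.49 and 0 TPM.

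Among ErbB ligands and feedback genes, 2 of 29 were over 2-fold higher and 4 lower, beside 12.0% and 14.7% of all genes. Areg, amphiregulin, an EGF receptor ligand, was at 56.4 and 107 TPM in the controls, 110.5 in clone 1 and 21.0 in clone 2. Dusp5, a phosphatase that acts on ERK, was at 26.0, 39.7, 12.0 and 3.13 TPM. Spry1, another feedback inhibitor, was at 28.1, 29.1, 39.3 and 92.3 TPM, so Dusp5 and Spry1 differed in opposite directions. Lysosomal genes included 9 of 47 over 2-fold higher and 5 lower, beside 12.0% and 14.7% of all genes. Cd63 was at 1327, 1286, 823 and 1949 TPM and Hexa at 20.6, 46.5, 33.3 and 7.34 TPM. Of 29 YAP/TAZ genes 6 were higher and 1 lower, beside the same shares, with a median of 0.01. Nf2, the merlin gene, was at 38.4, 15.7, 71.3 and 214 TPM. Cholesterol and fatty acid synthesis had no member over 2-fold lower and 2 of 36 higher, Scd1 and Tm7sf2. Over all genes 14.7% were lower and 12.0% higher. Phlda2, an imprinted gene, was at 85.2, 72.2, 41.0 and 5.36 TPM, lowest in clone 2.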
